A study of Mus musculus with 8 samples.

Results

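Small intestine from mice given the gamma-secretase inhibitor DBZ alone was compared with small intestine from mice given the synthetic glucocorticoid dexamethasone alone, directly and without reference to vehicle. The arrays were chosen by their labels: 4 of the 8 samples of the series carried one of these treatments, and they came to 3 of 7 distinct arrays, because the columns of the 2 DBZ samples were near-identical copies and were used as 1 array. All groups were 6-week-old female mice of the C57/Black6 strain that received daily intraperitoneal injections for 5 days. Dexamethasone was given at 15 mg/kg and DBZ at 10 micromol/kg. The 2 arrays of mice given both agents at those doses, called the combination, entered the fit only to measure the spread between arrays, and the 2 DMSO vehicle arrays were not used. Total RNA of snap-frozen tissue was hybridised to Affymetrix arrays, and the labels do not give the segment of small intestine or the hour of collection.

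Gamma-secretase cuts Notch receptors after they bind a ligand and so frees the Notch intracellular domain, which enters the nucleus and switches on target genes such as Hes1. In intestinal crypts this pathway keeps progenitors dividing and restrains Atoh1, the factor that commits cells to the secretory types: goblet, Paneth and enteroendocrine cells. Dexamethasone binds the glucocorticoid receptor Nr3c1, which acts on many genes of metabolism, inflammation and ion transport in the gut. A difference between these treatments can arise from either agent, and without vehicle the arrays cannot say from which.

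The copies deposited for DBZ carried equal values at 22684 of 22690 probe sets, and at the 6 others 1 of them read 0. The deposited intensities had one trimmed mean, 250.1 on every array. The enterocyte gene Vil1, an actin-bundling protein of the brush border, read 7292 with DBZ and 5603 and 6216 with dexamethasone, and the ileal bile acid binding protein Fabp6 read 11866 with DBZ and 3324 and 10013 with dexamethasone. The ratio of 3' to 5' signal for Gapdh, a measure of RNA integrity, was 1.80 with DBZ against 1.18 and 1.15 with dexamethasone, and for beta-actin 2.17 against 1.40 and 1.22. The RNA of the DBZ array therefore stood apart on this measure in every comparison that follows, and its part in them was not tested. Dexamethasone array 1 stood apart in another way: Car1, a carbonic anhydrase abundant in large intestine, read 52.4 with DBZ and 7427 and 39.9 with dexamethasone. The rank correlation across probe sets, which are not independent replicates, was 0.945 between DBZ and each dexamethasone array and 0.959 between the dexamethasone arrays.

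Of 13626 probe sets tested, 37 (0.272%) passed an adjusted p of 0.05 in limma, 10 higher (0.0734%) and 27 lower (0.198%) with DBZ than with dexamethasone. At an unadjusted p under 0.05 there were 2302. The genes that rose with DBZ were Pdk4, Pck1, Cyp2b10, Gip, Clu and Igha. The lower calls included probe sets of Hmgn1, Cdca3, Lpl, Tfrc and Mcm3. The lone DBZ array was taken to vary like the other groups, and p-values measure only the spread between these arrays. Other normalisation changed the split, since quantile normalisation gave 6 higher and 6 lower. The count turned on single arrays: it rose when 1 dexamethasone array was left out and fell when 1 combination array was left out.

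Pdk4, the kinase that switches off pyruvate dehydrogenase and so spares glucose, had the largest rise of the probe sets that passed. Its signal was 1248 with DBZ and 224 and 236 with dexamethasone (log2 difference 2.38 ± 0.22, adjusted p = 0.028), and 719 and 543 with the combination. The DBZ array lay far above both dexamethasone arrays and above both combination arrays. Pck1, the cytosolic enzyme that commits carbon to gluconeogenesis, read 2639 with DBZ and 947 and 969 with dexamethasone (log2 difference 1.45 ± 0.18, adjusted p = 0.0435). Again the 2 dexamethasone arrays lay close together and well below DBZ.

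Cyp2b10, a cytochrome P450 that oxidises drugs and steroids, read 4276 with DBZ and 1173 and 1344 with dexamethasone on its brightest probe set (log2 difference 1.76 ± 0.20, adjusted p = 0.0435). A second probe set of the gene also passed, and the third missed the threshold with a log2 difference of 2.12 (adjusted p = 0.0571). With the combination the brightest set read 3287 and 2963, nearer to DBZ than to dexamethasone. Gip, the incretin hormone of duodenal and jejunal K cells, read 1057 with DBZ and 374 and 429 with dexamethasone (log2 difference 1.37 ± 0.19, adjusted p = 0.0435). Its combination signals, 979.8 and 1076, lay at the level of DBZ.

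Clu, which encodes the secreted chaperone clusterin, read 826 with DBZ and 318 and 268 with dexamethasone on its brightest probe set (log2 difference 1.46 ± 0.20, adjusted p = 0.0435). Of its 4 tested probe sets 3 passed, and the fourth differed by 1.58, so all 4 were higher with DBZ by more than 1 on the log2 scale. With the combination the brightest set read 269.7 and 285, within the range of dexamethasone, and the other 3 sets read 129 to 209, below DBZ on each. An Igha probe set, for the constant region of the IgA heavy chain that gut plasma cells secrete, read 6835 with DBZ and 1586 and 2086 with dexamethasone (log2 difference 1.90 ± 0.24, adjusted p = 0.0435). The 2 other Igha probe sets were also higher, by 1.42 and 0.95, and did not pass. In bulk tissue, more cells of a type and more RNA per cell cannot be told apart. These 6 genes and 1 unnamed probe set accounted for all 10 higher calls.

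**Figure D1:**
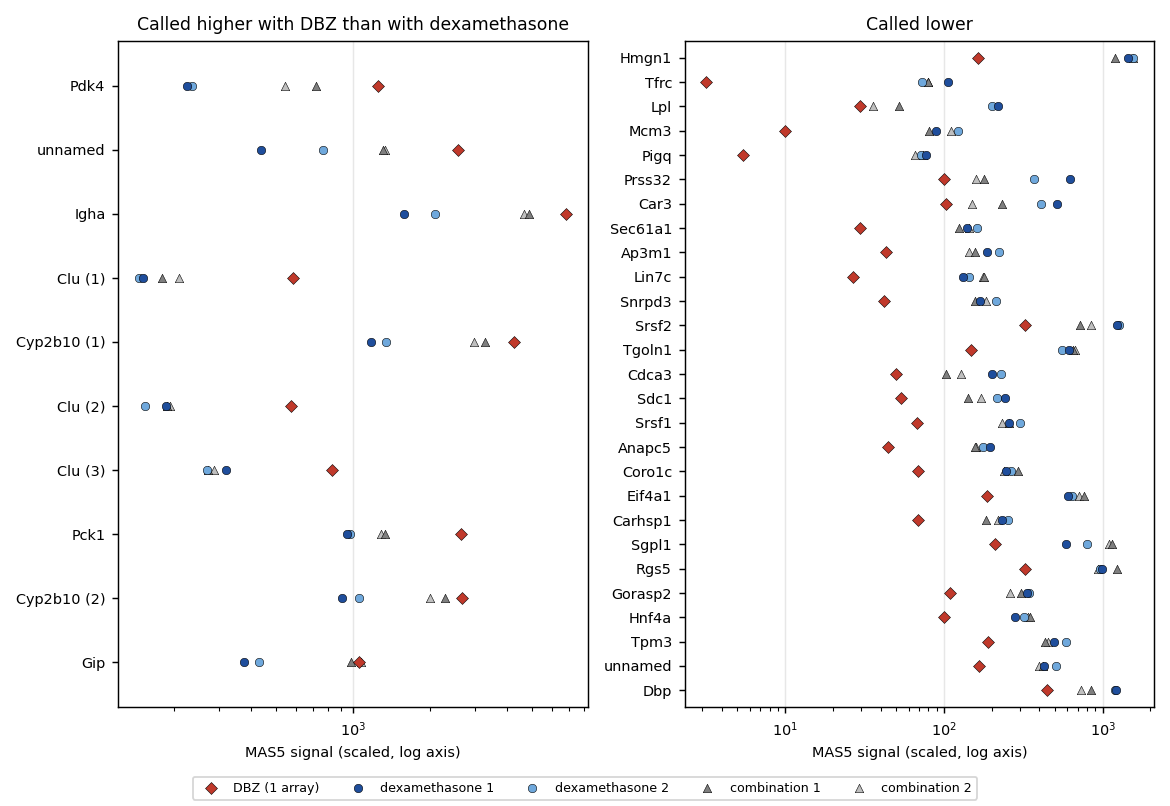
Signal of every probe set past the threshold in each array (log axis), DBZ as red diamonds, dexamethasone as blue circles and the combination as grey triangles, with numbers after a name for several probe sets of one gene. In the left panel DBZ lies above both dexamethasone arrays for all 10 probe sets, and in the right panel it is under both for all 27.

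Of the probe sets that passed, the largest fall was at one of Hmgn1, a protein that binds nucleosomes and loosens chromatin. It read 165 with DBZ and 1453 and 1554 with dexamethasone (log2 difference -3.10 ± 0.21, adjusted p = 0.00599), and the combination arrays, at 1196 and 1544, stayed with dexamethasone. The 2 other Hmgn1 probe sets differed by -0.55 and -0.07, so the fall was not shared by the whole gene. Cdca3, which promotes entry into mitosis, fell on its sole tested probe set, at 50.2 with DBZ and 202 and 230.4 with dexamethasone (log2 difference -1.87 ± 0.26, adjusted p = 0.0435). Cdca3 read 104 and 129 with the combination, between the other treatments.

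Among the lower calls were genes of lipid uptake, iron uptake and replication. A probe set of Lpl, the lipase that frees fatty acids from circulating triglyceride, read 29.6 with DBZ and 219 and 202 with dexamethasone (log2 difference -2.42 ± 0.31, adjusted p = 0.0435), and its brighter probe set differed by -1.86. A probe set of Tfrc, the transferrin receptor through which cells take up iron, read 3.18 with DBZ and 106 and 73 with dexamethasone (log2 difference -2.72 ± 0.35, adjusted p = 0.0435). Its DBZ signal lay under the pseudocount of 12.04, so the size of this fall rests on that constant. A probe set of Mcm3, a subunit of the replicative helicase, read 10 with DBZ and 89.8 and 122 with dexamethasone (log2 difference -2.41 ± 0.34, adjusted p = 0.0435). That DBZ signal also lay under the pseudocount, and the brightest Mcm3 set differed by -1.44. All 3 genes were thus lower on more than one probe set.

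The other lower calls included probe sets of Srsf2 (-1.89 ± 0.19), Srsf1 (-1.86 ± 0.23) and Snrpd3 (-1.90 ± 0.26), which act in pre-mRNA splicing. In the secretory pathway they included Sec61a1 (-1.96 ± 0.27), the channel of the endoplasmic reticulum, and the Golgi proteins Tgoln1 (-1.89 ± 0.19) and Gorasp2 (-1.52 ± 0.21). For Srsf1, Srsf2, Snrpd3, Sec61a1 and Tgoln1 at least 1 other probe set was not lower, so these falls were not shared by every probe set of the gene. The clock-output transcription factor Dbp fell by 1.40 on 1 probe set, with 449.5 with DBZ and 1214 and 1202 with dexamethasone, and differed by -0.78 on its brighter set. A probe set of Hnf4a, a nuclear receptor of gut epithelium, differed by -1.48 ± 0.21, and its brightest set by -0.05. These genes were named after their values were seen, because most lower calls were not on the brightest probe set of the gene.

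That pattern held across the lower calls. Of 26 named genes with a lower call, 25 had another tested probe set, and in 22 of them the brightest such set was brighter than the called one. The median log2 difference was -1.89 for the called sets and -0.50 for the brightest other sets. Of those other sets 16 were lower with DBZ, 12 lay within 0.5 of no difference and 3 lay at -1 or below. Probe sets with the suffix s, x or a, which may also match other transcripts or variants, were 36.6% of those tested, 59.3% of the lower calls and 70% of the higher calls. Counted per gene on its brightest probe set, 5 genes (0.0617%) were called higher and 4 (0.0494%) lower of 8098. The higher genes were Pdk4, Cyp2b10, Pck1, Gip and Clu, and the lower were Hmgn1, Srsf2, Snrpd3 and Cdca3.

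**Figure D2:**
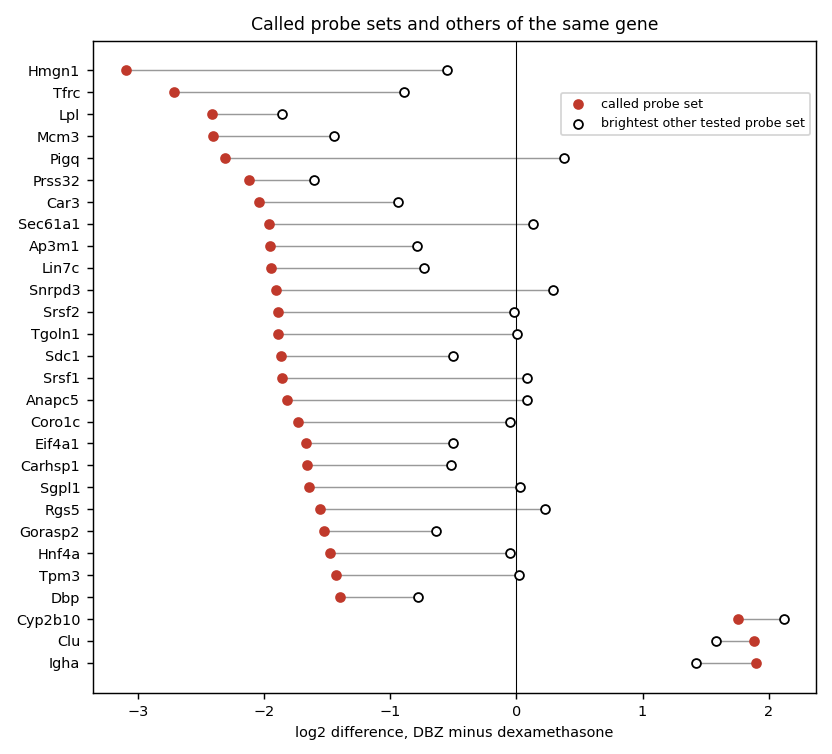
Log2 difference, DBZ minus dexamethasone, of the called probe set (red) and of the brightest other tested probe set (open circle) of each called gene that has one. The 25 lower calls lie closer to 0 on the other set in all genes shown, to a median of -0.50, while Cyp2b10, Clu and Igha stay above 1.

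Gene groups were described by how many members lay at least 2-fold above or below both dexamethasone arrays, on the log2(signal + 12.04) scale, with each gene represented by its brightest probe set. Of all 8098 genes, 61 (0.753%) were at least 2-fold above and 139 (1.72%) at least 2-fold below. The median over all genes was -0.03, with quartiles of -0.32 and 0.23, and 53.2% were lower with DBZ. Of the 32 lists described here, the lowest medians were those of Paneth cell, mitotic and antimicrobial genes, and the highest those of MHC class II, B cell and plasma cell, and cytochrome P450 genes. None of these lists was tested as a set.

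**Figure D3:**
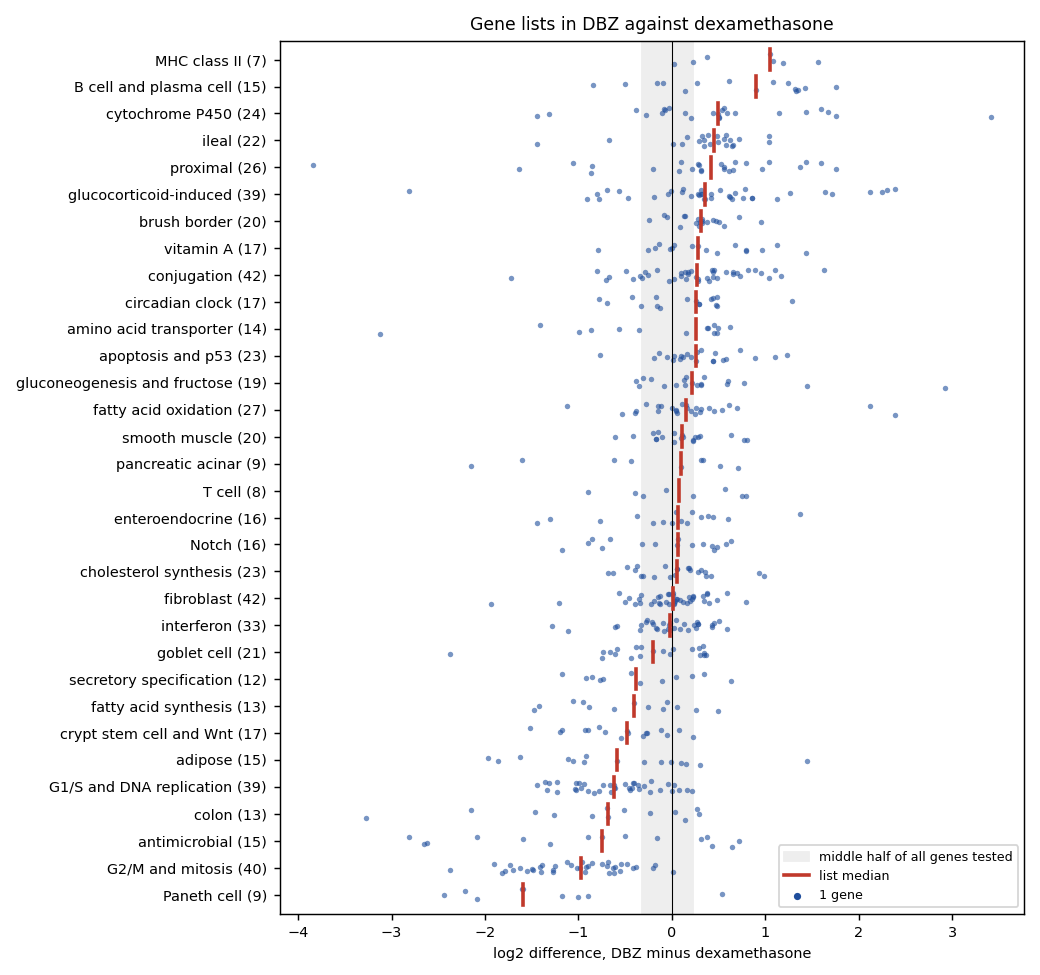
Log2 difference, DBZ minus dexamethasone, of each tested gene (blue points) in 32 lists, with the list median in red and the number of genes in brackets; the grey band spans the quartiles of all genes tested, -0.32 to 0.23. Paneth cell (-1.60) and G2/M (-0.97) medians lie farthest left, and MHC class II (1.05) and B cell and plasma cell (0.90) medians farthest right.

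Genes of G2 phase and mitosis were lower with DBZ almost throughout. Of 49 listed genes 40 were tested, 39 of them were lower, and 16 were at least 2-fold below both dexamethasone arrays, with a median of -0.97. In limma 0 passed the threshold on the brightest probe set, and 27 had an unadjusted p under 0.05, against 8.93% of all genes. The median was -0.90 against dexamethasone array 1 and -1.06 against array 2, so it did not rest on either one. The combination arrays were not alike, with medians of -0.82 and -0.31 against dexamethasone.

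Smc2 and Ncapd2, subunits of the condensin complex that compacts chromosomes, were among the lowest by p. Smc2 read 38.1 with DBZ and 145 and 187 with dexamethasone (log2 difference -1.82 ± 0.30, adjusted p = 0.0599), and Ncapd2 read 52.4 with DBZ and 147 and 172 with dexamethasone (log2 difference -1.41 ± 0.30, adjusted p = 0.0928). Mad2l1, a spindle checkpoint protein, read 51.4 with DBZ and 173 and 229 with dexamethasone (log2 difference -1.74 ± 0.34, adjusted p = 0.0747). In all 3 genes the DBZ array was below both dexamethasone arrays by a wide margin, though none passed the adjusted threshold. Nuf2, a kinetochore protein, read 2.98 with DBZ and 48.2 and 89.4 with dexamethasone (log2 difference -2.38 ± 0.51, adjusted p = 0.0953). The DBZ signal of Nuf2 lay under the pseudocount of 12.04, so the size of its fall rests on that constant. Racgap1, needed for cytokinesis, read 16.5 with DBZ and 73.1 and 123 with dexamethasone (log2 difference -1.91 ± 0.41, adjusted p = 0.0976).

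Top2a, the topoisomerase that untangles replicated DNA, read 143 with DBZ and 449 and 538 with dexamethasone (log2 difference -1.70 ± 0.37, adjusted p = 0.101), and the mitotic kinase Plk1 read 25.2 with DBZ and 91.1 and 115 with dexamethasone (log2 difference -1.62 ± 0.37, adjusted p = 0.105). Prc1, which bundles microtubules of the late spindle, read 46.9 with DBZ and 119 and 143 with dexamethasone (log2 difference -1.27 ± 0.29, adjusted p = 0.105). The proliferation antigen Mki67 differed less, with 356 with DBZ and 516 and 659 with dexamethasone (log2 difference -0.70 ± 0.35, adjusted p = 0.357). For each of these 4 genes the DBZ array was the lowest of the 3 arrays compared.

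Many mitotic genes carry a CCAAT box, bound by NF-Y, and a CHR element with the letters TTTGAA, through which the DREAM complex represses them outside the cell cycle. The promoter windows of 3 of the genes above, the first by p with both motifs, are printed to show this arrangement. Each is a RefSeq window of GRCm38.p6 from 250 bases before to 50 after the gene start, 5′ to 3′ on the strand of the gene. Capitals mark CCAAT and TTTGAA or their complements ATTGG and TTCAAA; marked sites do not overlap in these windows. Smc2 lies at chr4:52438971-52439270 on the plus strand, Ncapd2 at chr6:125191537-125191836 on the minus strand and Racgap1 at chr15:99651607-99651906 on the minus strand.
Smc2: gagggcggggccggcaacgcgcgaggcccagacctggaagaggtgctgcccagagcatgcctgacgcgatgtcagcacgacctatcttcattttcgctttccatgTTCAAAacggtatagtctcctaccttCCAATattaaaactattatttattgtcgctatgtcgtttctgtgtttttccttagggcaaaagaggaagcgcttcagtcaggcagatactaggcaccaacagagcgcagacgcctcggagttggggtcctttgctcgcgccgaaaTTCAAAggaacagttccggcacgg
Ncapd2: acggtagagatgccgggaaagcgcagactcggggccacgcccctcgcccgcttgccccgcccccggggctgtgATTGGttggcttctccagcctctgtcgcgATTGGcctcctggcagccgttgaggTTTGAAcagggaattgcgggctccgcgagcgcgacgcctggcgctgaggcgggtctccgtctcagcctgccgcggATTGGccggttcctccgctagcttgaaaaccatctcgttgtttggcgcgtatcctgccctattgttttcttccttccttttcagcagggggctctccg
Racgap1: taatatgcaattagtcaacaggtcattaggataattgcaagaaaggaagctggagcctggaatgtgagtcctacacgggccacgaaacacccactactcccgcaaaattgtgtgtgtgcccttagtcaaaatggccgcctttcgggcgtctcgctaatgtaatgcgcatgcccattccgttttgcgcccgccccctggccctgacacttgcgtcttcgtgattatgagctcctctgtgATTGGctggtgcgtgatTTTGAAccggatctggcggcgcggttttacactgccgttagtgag

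On both strands, CCAAT was found in 26 of the 35 tested G2/M genes with a window (74.3%) and TTTGAA in 25 (71.4%). Both were found in 23 (65.7%). Among 6596 tested genes with a window the shares were 38.4%, 11.7% and 4.76%. The 31 G1/S genes with a window differed from the G2/M genes in the second motif, with CCAAT in 61.3% and TTTGAA in 9.68%. Within the G2/M list the median log2 difference was -1.12 for the 23 genes with both motifs, -0.94 for the 12 without and -0.68 for the 5 with no window. The matches describe letters in these windows and do not show binding.

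Genes of the G1/S transition and of DNA replication were lower by a smaller median. Of 51 listed genes 39 were tested, 35 were lower, 6 were at least 2-fold below both dexamethasone arrays and the median was -0.61. Uhrf1, which carries DNA methylation through replication, read 58.1 with DBZ and 162 and 174 with dexamethasone (log2 difference -1.36 ± 0.27, adjusted p = 0.0797). Rrm1, a subunit of ribonucleotide reductase, read 61.7 with DBZ and 169 and 154 with dexamethasone (log2 difference -1.23 ± 0.30, adjusted p = 0.122). The DBZ array again lay below both others for these genes.

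Mcm2, another helicase subunit, read 117 with DBZ and 221 and 275 with dexamethasone (log2 difference -0.998 ± 0.23, adjusted p = 0.108), and here the combination arrays, 248 and 237, stayed at the level of dexamethasone. Rfc4, of the clamp loader, differed by -1.34 ± 0.34, Pold2, of DNA polymerase delta, by -1.02 ± 0.29 and the thymidine kinase Tk1 by -1.32 ± 0.40. Ccnd2, a D-type cyclin that drives exit from G1, read 1275 with DBZ and 2197 and 2763 with dexamethasone (log2 difference -0.94 ± 0.24, adjusted p = 0.129), and its 5 other tested probe sets were all lower as well. None of the G1/S genes passed the threshold on its brightest probe set.

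Genes of crypt stem cells and of Wnt signalling had a median of -0.48 over 17 tested genes, and 15 were lower with DBZ. This median depended on the array, at -0.57 against dexamethasone array 1 and -0.27 against array 2. The sodium-potassium-chloride cotransporter Slc12a2, high in crypts, read 586 with DBZ and 1614 and 1137 with dexamethasone (log2 difference -1.19 ± 0.32, adjusted p = 0.141). Sox9, a transcription factor of the crypt base, read 26.6 with DBZ and 84.5 and 66.7 with dexamethasone (log2 difference -1.17 ± 0.40, adjusted p = 0.21) and was the sole gene of the list at least 2-fold below both arrays. Both lay lowest with DBZ, and Myc, a Wnt and Notch target, did so by a smaller amount (log2 difference -0.89 ± 0.35, adjusted p = 0.258).

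Paneth cells sit at the crypt base and secrete antimicrobial proteins, and the list drawn up for them had the lowest median of the lists described. That list also holds Clps, which is in the pancreatic list too, and Sox9, which is in the stem cell list too. The macrophage gene Lyz2 and the stress-induced gene Nupr1 are in it as well. Of 21 listed genes only 9 were tested, 8 were lower with DBZ and 6 were at least 2-fold below both dexamethasone arrays. The median of -1.60 was the value of Pla2g2a. Against dexamethasone array 1 alone the median was -1.32, and against array 2 alone -1.04. Mmp7, the protease that activates alpha-defensins, read 118 with DBZ and 564 and 849.6 with dexamethasone (log2 difference -2.44 ± 0.40, adjusted p = 0.0595). Itln1, a lectin that binds microbial sugars, read 965 with DBZ and 3312 and 5131 with dexamethasone (log2 difference -2.08 ± 0.40, adjusted p = 0.0747). In both genes the dexamethasone arrays differed from each other by less than either differed from DBZ.

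Pla2g2a, a secreted phospholipase that kills bacteria, read 41.1 with DBZ and 142 and 156 with dexamethasone (log2 difference -1.60 ± 0.31, adjusted p = 0.0747), and colipase, Clps, which also belongs to the pancreatic list, read 215 with DBZ and 525 and 876 with dexamethasone (log2 difference -1.61 ± 0.29, adjusted p = 0.0731). Lysozyme was lower by less: the Paneth gene Lyz1 read 5289.9 with DBZ and 9284 and 10528 with dexamethasone (log2 difference -0.90 ± 0.39, adjusted p = 0.295) and the macrophage gene Lyz2 743 with DBZ and 1541 and 1466 with dexamethasone (log2 difference -1.005 ± 0.24, adjusted p = 0.118). These lysozymes are close copies, so their probe sets may share signal. Of the summed signal of the tested Paneth genes, DBZ held 18254 and the dexamethasone arrays 23762 and 27899. Bright genes weigh most in such a sum, and it includes the 1 member that was higher with DBZ, by 0.54 on the log2 scale.

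The wider antimicrobial list had a median of -0.75 over 15 tested genes, with 10 lower and 4 at least 2-fold below both arrays. Lcn2, which withholds iron from bacteria, read 5.01 with DBZ and 194 and 57.9 with dexamethasone (log2 difference -2.82 ± 0.63, adjusted p = 0.105). Its DBZ signal lay under the pseudocount of 12.04, so the size of this fall rests on that constant too. The acute-phase gene Saa3 read 60.3 with DBZ and 932 and 206 with dexamethasone (log2 difference -2.65 ± 0.69, adjusted p = 0.131), and here dexamethasone array 1 lay far above array 2. The peptidoglycan-binding protein Pglyrp1 read 293 with DBZ and 464 and 538 with dexamethasone (log2 difference -0.75 ± 0.23, adjusted p = 0.175), with the dexamethasone arrays close together.

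Goblet cells secrete the intestinal mucus, and their genes did not share the low values of the Paneth genes. Of 21 tested goblet genes 13 were lower and 8 higher with DBZ, the median was -0.20, and none was 2-fold apart from both arrays in either direction. Of the 5 goblet markers 4 were higher with DBZ than in both dexamethasone arrays, though combination array 2 was higher still for all 4. Among them the trefoil peptide Tff3 read 9653 with DBZ and 7118 and 8592 with dexamethasone, the mucus protein Fcgbp 9001 with DBZ and 7050.0 and 8562 with dexamethasone and Clca1 7260.3 with DBZ and 5479 and 6445 with dexamethasone. A second Clca1 probe set differed by -0.25. The exception was Agr2, a disulphide isomerase that folds mucins, at 1257 with DBZ and 2408 and 1856 with dexamethasone (log2 difference -0.75 ± 0.34, adjusted p = 0.315). Qsox1, a sulphhydryl oxidase active in mucus assembly, read 222 with DBZ and 326 and 361 with dexamethasone (log2 difference -0.60 ± 0.21, adjusted p = 0.211). Klf4, a transcription factor of goblet cell maturation, read 3507 with DBZ and 2578 and 2958 with dexamethasone (log2 difference 0.34 ± 0.23, adjusted p = 0.478).

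Notch pathway genes were balanced between the treatments, with 9 of 16 higher, 7 lower and a median of 0.06. Hes1, the repressor that Notch induces in crypts, read 71.3 with DBZ and 123 and 155 with dexamethasone (log2 difference -0.85 ± 0.34, adjusted p = 0.259), with the combination at 71 and 118. Rbpj, the DNA-binding partner of the Notch intracellular domain, read 98.6 with DBZ and 187 and 143 with dexamethasone (log2 difference -0.67 ± 0.26, adjusted p = 0.251). The DBZ array was the lowest of the 3 for both genes, and neither passed. The ligand Dll4 read 88.9 with DBZ and 48.7 and 57.9 with dexamethasone (log2 difference 0.63 ± 0.32, adjusted p = 0.36) and the Notch antagonist Numb 1418 with DBZ and 999 and 1099 with dexamethasone (log2 difference 0.43 ± 0.18, adjusted p = 0.287). Those 2 were highest with DBZ on the brightest probe set, again without passing, but the second probe set of each ran the other way, at -0.44 for Dll4 and -0.33 for Numb. The sign of the median was not settled either, since it was -0.19 with no filter on mean signal.

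The factors that specify secretory cells had a median of -0.39 over 12 tested genes, and 8 were lower. Atoh1, which Notch represses in crypts, read 184 with DBZ and 265 and 372 with dexamethasone (log2 difference -0.74 ± 0.31, adjusted p = 0.285), and 168 and 262 with the combination. Its DBZ signal was below both dexamethasone arrays. Foxa1, a forkhead factor of goblet and enteroendocrine cells, read 232 with DBZ and 589.9 and 343 with dexamethasone (log2 difference -0.92 ± 0.34, adjusted p = 0.233).

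Hormone genes of enteroendocrine cells split. The list of 16 tested genes had a median of 0.07, with Gip called higher and Gcg at least 2-fold below both arrays. Gcg, whose product is cut to GLP-1 in ileal and colonic L cells, read 79.7 with DBZ and 238 and 238 with dexamethasone (log2 difference -1.45 ± 0.26, adjusted p = 0.0731). Somatostatin, Sst, read 297 with DBZ and 222 and 208 with dexamethasone (log2 difference 0.44 ± 0.22, adjusted p = 0.357), and neurotensin, Nts, read 1182 with DBZ and 769 and 1051 with dexamethasone (log2 difference 0.39 ± 0.23, adjusted p = 0.438). Reg4, a lectin of secretory cells, read 204 with DBZ and 342 and 789 with dexamethasone (log2 difference -1.30 ± 0.41, adjusted p = 0.184), with the dexamethasone arrays more than 2-fold apart.

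Genes that glucocorticoids are known to induce were, on balance, higher with DBZ than with dexamethasone. The list also holds the receptor and its pathway: 39 of 49 genes were tested, 29 were higher, 7 were at least 2-fold above both dexamethasone arrays and 1 at least 2-fold below. The median was 0.36, and 0.40 against each dexamethasone array alone. Pdk4 was the sole member to pass the threshold, and 12 members had an unadjusted p under 0.05 in the higher direction, beside 6.01% of all genes.

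Tsc22d3, which encodes the anti-inflammatory protein GILZ, read 1712 with DBZ and 405 and 727 with dexamethasone on its brightest probe set (log2 difference 1.63 ± 0.32, adjusted p = 0.0747). Its 2 other probe sets differed by 0.90 and 0.16. Zbtb16, a zinc finger repressor, read 135 with DBZ and 13.7 and 22.4 with dexamethasone (log2 difference 2.31 ± 0.38, adjusted p = 0.0614), and 36.6 and 33.5 with the combination. The DBZ array was the highest of all for both genes. Klf15, a regulator of amino acid and glucose metabolism, read 215 with DBZ and 46.6 and 26.9 with dexamethasone (log2 difference 2.25 ± 0.44, adjusted p = 0.0752). Sgk1, the kinase that activates epithelial sodium channels, read 5041 with DBZ and 1768 and 2489 with dexamethasone (log2 difference 1.26 ± 0.26, adjusted p = 0.0837), with the combination close to DBZ at 4505 and 3850.1.

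Fkbp5, a cochaperone that damps the glucocorticoid receptor, read 1072 with DBZ and 449 and 224 with dexamethasone (log2 difference 1.72 ± 0.42, adjusted p = 0.122), and its second probe set was higher by 0.99. The dexamethasone arrays were themselves 2-fold apart, and DBZ lay above both. Per1, a clock gene with a glucocorticoid response element, read 202 with DBZ and 179 and 123 with dexamethasone (log2 difference 0.42 ± 0.32, adjusted p = 0.548). Nr3c1, the receptor itself, ran the other way, with 731 with DBZ and 1036 and 1145 with dexamethasone (log2 difference -0.57 ± 0.18, adjusted p = 0.186), and its 2 other probe sets were lower by 0.80 and 0.37 on the log2 scale. Lcn2, given above among the antimicrobial genes, was the gene of the list lower by 2-fold or more.

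A palindromic match to the core of the glucocorticoid response element, searched on either strand, was found in the windows of 3 of 30 genes of the list (10.0%) against 0.318% of tested genes. These genes were Mt1, a metallothionein, at 10487 with DBZ and 5246 and 6418 with dexamethasone, Txnip, which inhibits thioredoxin, at 3135 with DBZ and 2711 and 2202 with dexamethasone, and Map3k6, a stress kinase, at 259 with DBZ and 187 and 223 with dexamethasone. DBZ was the highest of the 3 arrays for each, none passed the threshold, and another Txnip probe set ran the other way at -0.67. These 3 genes were chosen after their motif was seen.

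**Figure D4:**
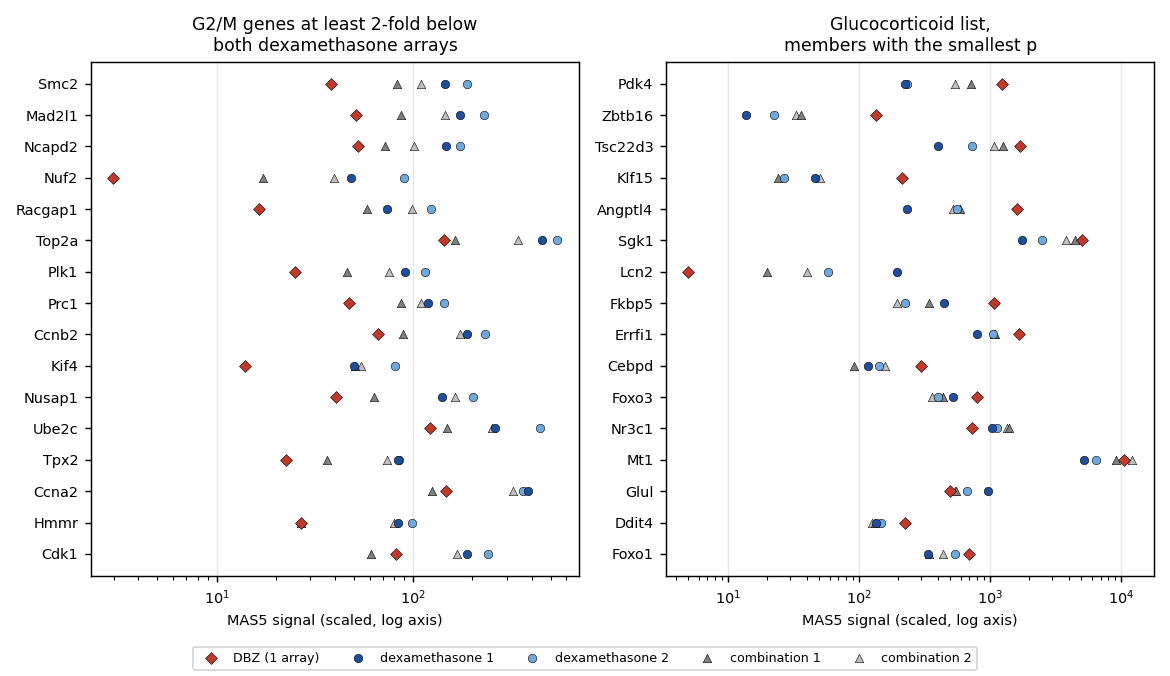
Signal in each array (log axis) of the 16 G2/M genes at least 2-fold below both dexamethasone arrays (left) and of the 16 glucocorticoid-list members with the smallest p (right), with DBZ as red diamonds, dexamethasone as blue circles and the combination as grey triangles. On the left DBZ is below both dexamethasone arrays for every gene. On the right it is at least 2-fold above both for Pdk4, Zbtb16, Tsc22d3, Klf15, Angptl4, Sgk1 and Fkbp5. For Lcn2 it is at least 2-fold below both, and for Nr3c1 it is below both by less.

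Clock genes differed in both directions, with a median of 0.26 over 17 tested genes. The sign of that median turned to -0.13 without s, x and a probe sets and to -0.088 when the probe sets of each gene were averaged. Arntl, which encodes the activator BMAL1, read 74.7 with DBZ and 23.3 and 24.1 with dexamethasone (log2 difference 1.28 ± 0.37, adjusted p = 0.153) and was the sole gene at least 2-fold above both arrays. Dbp and Nr1d1, both driven by BMAL1, were lower, with Nr1d1 at 142 with DBZ and 234 and 239.7 with dexamethasone (log2 difference -0.70 ± 0.22, adjusted p = 0.184). Cry2, a repressor of the clock, read 285 with DBZ and 213 and 201 with dexamethasone (log2 difference 0.44 ± 0.20, adjusted p = 0.323). The hour of collection is not in the labels, so time of day and treatment cannot be told apart.

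Genes of glucose production were higher with DBZ at 2 steps. Of 19 tested genes of gluconeogenesis and fructose use, 14 were higher, with a median of 0.21, and Pck1 and G6pc were at least 2-fold above both dexamethasone arrays. G6pc, the phosphatase that releases free glucose, read 1294 with DBZ and 82.4 and 301 with dexamethasone (log2 difference 2.92 ± 0.57, adjusted p = 0.0747). Its partner, the glucose 6-phosphate transporter Slc37a4, read 1529.8 with DBZ and 842 and 938 with dexamethasone (log2 difference 0.77 ± 0.20, adjusted p = 0.128). DBZ was highest for both, but the dexamethasone arrays were more than 3-fold apart for G6pc. Khk, which phosphorylates fructose, differed by 0.60 ± 0.24.

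Fatty acid oxidation genes had a median of 0.15 over 27 tested genes, within the quartiles of all genes, with Pdk4 and Angptl4 at least 2-fold above both arrays. Angptl4, a secreted inhibitor of lipoprotein lipase, read 1619.9 with DBZ and 233 and 563 with dexamethasone (log2 difference 2.12 ± 0.42, adjusted p = 0.0771). Cpt1a, which carries fatty acids into mitochondria, ran the other way at 446 with DBZ and 1132 and 855 with dexamethasone (log2 difference -1.12 ± 0.21, adjusted p = 0.0747), but its 2 other probe sets differed by 0.90 and -0.39. Its probe sets thus disagreed in direction.

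Most fatty acid synthesis genes were lower, with a median of -0.41 and 10 of 13 below dexamethasone. Fasn, the fatty acid synthase, read 170.2 with DBZ and 446 and 509 with dexamethasone (log2 difference -1.42 ± 0.22, adjusted p = 0.0538), and the combination arrays, 197 and 233, lay near DBZ. Fads2, the delta-6 desaturase, read 75.4 with DBZ and 226 and 237 with dexamethasone (log2 difference -1.48 ± 0.33, adjusted p = 0.105). Scd1, which desaturates stearate, read 1232 with DBZ and 2327 and 2845 with dexamethasone (log2 difference -1.06 ± 0.31, adjusted p = 0.16), and was lower still with the combination at 607 and 349. Cholesterol synthesis genes showed no such shift, at a median of 0.05 over 23 genes, which turned to -0.20 with probe sets averaged, and the sterol exporters Abcg5 (log2 difference 0.93 ± 0.20, adjusted p = 0.0953) and Abcg8 (log2 difference 0.98 ± 0.22, adjusted p = 0.105) were higher with DBZ.

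Of 24 tested cytochrome P450 genes, 16 were higher and 8 lower with DBZ, 6 were at least 2-fold above both dexamethasone arrays and the median was 0.50. Cyp2b10 passed the threshold. Cyp3a11, a main intestinal drug oxidase, read 8175 with DBZ and 2294 and 3169 with dexamethasone (log2 difference 1.60 ± 0.26, adjusted p = 0.0571), and Cyp3a25 read 2803 with DBZ and 1033 and 739 with dexamethasone (log2 difference 1.67 ± 0.26, adjusted p = 0.0571). Cyp2c29 read 237 with DBZ and 15.1 and 8.22 with dexamethasone (log2 difference 3.41 ± 0.61, adjusted p = 0.0731), where 1 dexamethasone array was below the pseudocount. Cyp27a1, the mitochondrial sterol 27-hydroxylase, read 1496 with DBZ and 574 and 517 with dexamethasone (log2 difference 1.44 ± 0.27, adjusted p = 0.0739). For all 4 genes both combination arrays were above both dexamethasone arrays, at 5929 and 6192 for Cyp3a11 and 294 and 81.2 for Cyp2c29. The Cyp3a and Cyp2c families hold close copies, so their probe sets may share signal.

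Conjugation genes and transporters had a median of 0.27, with 30 of 42 higher. The glucuronosyltransferase Ugt2a3 read 819 with DBZ and 409 and 315 with dexamethasone (log2 difference 1.16 ± 0.22, adjusted p = 0.0747), and the carboxylesterase Ces2a read 4934 with DBZ and 2441 and 2345 with dexamethasone (log2 difference 1.04 ± 0.22, adjusted p = 0.0928). Nr1i2, the pregnane X receptor that induces Cyp3a11, read 359.5 with DBZ and 182 and 194 with dexamethasone (log2 difference 0.89 ± 0.22, adjusted p = 0.12). The DBZ array was above both dexamethasone arrays for all 3. Vitamin A genes had a median of 0.28 over 17 genes, and 0.68 over the 11 left by the stricter filter. Bco1, which splits beta-carotene, read 323 with DBZ and 103 and 122 with dexamethasone (log2 difference 1.43 ± 0.35, adjusted p = 0.122) and the retinol dehydrogenase Rdh7 1507 with DBZ and 585 and 801 with dexamethasone (log2 difference 1.12 ± 0.24, adjusted p = 0.0974).

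Most tested genes of B cells and plasma cells were higher with DBZ. Of 15 tested, 11 were higher and 4 lower, and 6 were at least 2-fold above both arrays. The median of 0.90 was nearly the same against each dexamethasone array, at 0.88 and 0.93. It fell to 0.37 over the 8 members left by a filter at the 60th percentile of signal. Jchain, which joins IgA into dimers, read 2039 with DBZ and 691 and 955 with dexamethasone (log2 difference 1.31 ± 0.26, adjusted p = 0.0747). Cd79a, a chain of the B cell receptor complex, read 104 with DBZ and 30.4 and 15.8 with dexamethasone (log2 difference 1.75 ± 0.49, adjusted p = 0.148). The B cell coactivator Pou2af1 read 85.9 with DBZ and 22.1 and 32.5 with dexamethasone (log2 difference 1.33 ± 0.36, adjusted p = 0.143). Dexamethasone signals of Cd79a and Pou2af1 were near the pseudocount, so their differences rest on that constant more than that of Jchain does. The B cell marker Ighm did not lie above both arrays, at 226 with DBZ and 354 and 54.5 with dexamethasone.

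All 7 tested genes of MHC class II antigen presentation were higher with DBZ, with a median of 1.05. The median was 1.12 against dexamethasone array 1 and 0.50 against array 2, and it was 0.30 over the 4 genes left without s, x and a probe sets. H2-Aa, an alpha chain, read 1456 with DBZ and 665 and 606 with dexamethasone (log2 difference 1.18 ± 0.19, adjusted p = 0.0571), and its second probe set was higher by 1.63. Cd74, the invariant chain, read 1744 with DBZ and 515 and 659.9 with dexamethasone (log2 difference 1.56 ± 0.28, adjusted p = 0.0731), and H2-Eb1, a beta chain, read 793 with DBZ and 351 and 403 with dexamethasone (log2 difference 1.05 ± 0.19, adjusted p = 0.0731). For these 3 genes DBZ lay above every dexamethasone and combination array. H2-Ab1 read 576 with DBZ and 174 and 403 with dexamethasone (log2 difference 1.08 ± 0.42, adjusted p = 0.25), with the dexamethasone arrays wide apart.

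T cell genes had a median of 0.08, but of 33 listed genes 29 were named on the array and only 8 were bright enough to test, 4 higher and 4 lower. The defining marker Cd3e was not among them. Interferon-induced genes were balanced, with 15 of 33 higher and a median of -0.02. Irf7, the regulator of the type I interferon response, read 252 with DBZ and 640.3 and 488 with dexamethasone (log2 difference -1.11 ± 0.22, adjusted p = 0.0797), and the RNA-activated kinase Eif2ak2 read 18.2 with DBZ and 61.3 and 61.5 with dexamethasone (log2 difference -1.28 ± 0.35, adjusted p = 0.142). Both were lowest with DBZ, but a second Eif2ak2 probe set differed by only -0.21.

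Apoptosis and p53 genes had a median of 0.26, and 19 of 23 were higher with DBZ. Pmaip1, the BH3-only protein NOXA, read 1048 with DBZ and 443 and 437 with dexamethasone (log2 difference 1.23 ± 0.24, adjusted p = 0.0771), and Bcl2l11, which encodes the BH3-only protein BIM, 1278 with DBZ and 691 and 499 with dexamethasone (log2 difference 1.10 ± 0.23, adjusted p = 0.0852). The survival genes Mcl1 (log2 difference 0.89 ± 0.20, adjusted p = 0.105) and Bcl2l1 (log2 difference 0.73 ± 0.19, adjusted p = 0.141) were higher on their brightest probe sets. The 2 other Bcl2l1 sets ran the other way, at -0.81 and -0.55, the 5 other Mcl1 sets lay between 0.03 and 1.20, and the 3 other Bcl2l11 sets differed by no more than 0.31. The list median fell to 0.12 when the probe sets of each gene were averaged.

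Genes that mark positions along the gut were compared because the labels do not give the segment. Ileal genes had a median of 0.45, with 20 of 22 higher with DBZ, and it was 0.55 against dexamethasone array 1 and 0.21 against array 2. Genes of proximal small intestine had a like median of 0.42, with 20 of 26 higher, and brush border genes 0.31, with 17 of 20 higher. Genes of both ends thus had higher medians in the same array. Within the proximal list Gip and Cyp2b10 rose, while Ctse, an aspartic protease, read 72.6 with DBZ and 264 and 239 with dexamethasone (log2 difference -1.63 ± 0.24, adjusted p = 0.0512). The second, dimmer Ctse probe set did not share this, at 0.14. S100g, the calcium-binding protein of duodenal absorption, read 3.81 with DBZ and 685 and 61.4 with dexamethasone (log2 difference -3.84 ± 1.06, adjusted p = 0.148). Its DBZ signal lay under the pseudocount of 12.04, and its dexamethasone arrays were over 10-fold apart. Whether the tissue came from the same position in each mouse was not tested.

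Colon genes separated the dexamethasone arrays from each other. Their median was -1.15 against dexamethasone array 1 and -0.07 against array 2, over 13 of 30 genes. Their summed signal was 23342 with DBZ, 34251 in dexamethasone array 1 and 22364 in array 2. The anion exchanger Slc26a3 read 378 with DBZ and 914 and 529.9 with dexamethasone (log2 difference -0.86 ± 0.30, adjusted p = 0.215), and Car4, a membrane carbonic anhydrase, read 939.9 with DBZ and 2094 and 1102 with dexamethasone (log2 difference -0.69 ± 0.35, adjusted p = 0.365). The same array was high for Nupr1, a stress-induced chromatin protein counted in the Paneth list, at 169.8 with DBZ and 1897 and 362 with dexamethasone, and for Prom1, a membrane glycoprotein of the stem cell list, at 352 with DBZ and 2462 and 429 with dexamethasone. For these 4 genes array 2 lay nearer to DBZ than to array 1. The colon marker Aqp8 was too dim to test, at 16.6 with DBZ and 56.2 and 18.4 with dexamethasone.

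**Figure D5:**
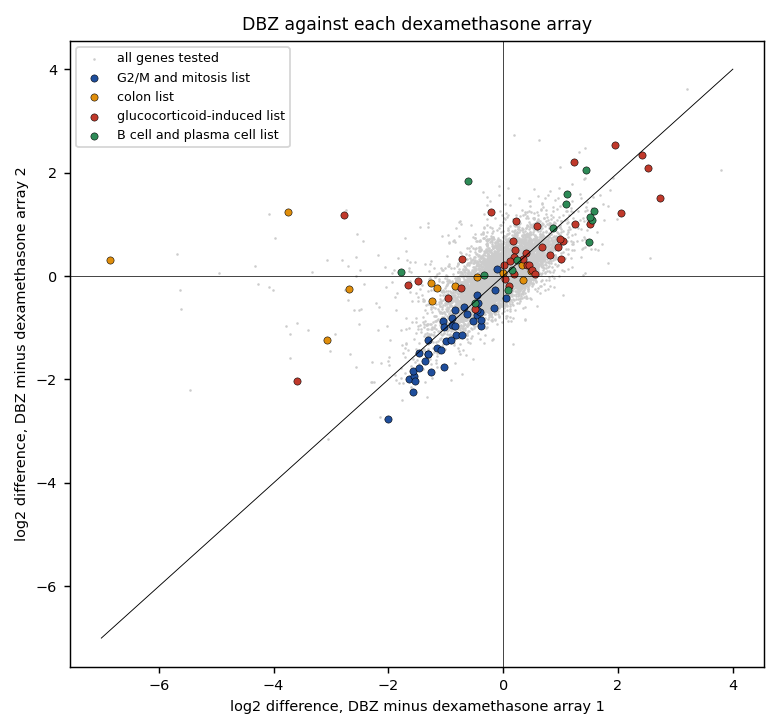
Log2 difference of DBZ from dexamethasone array 1 (x axis) and from array 2 (y axis) for all tested genes (grey) and 4 lists in colour, with the line of equal differences. G2/M genes lie along the line in the lower left, with medians of -0.90 and -1.06, while colon genes lie left of it, with medians of -1.15 and -0.07.

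Genes of tissue outside the epithelium differed by list. Adipose genes had a median of -0.59, -0.76 and -0.41 against the dexamethasone arrays singly, with 11 of 15 lower. Adiponectin, Adipoq, a hormone that fat cells secrete, read 132 with DBZ and 687 and 444 with dexamethasone (log2 difference -1.97 ± 0.36, adjusted p = 0.0736), with the combination at 229.9 and 129. The summed adipose signal was 8612 with DBZ and 11987 and 10046 with dexamethasone. The adipose median was -0.30 with the stricter filter or with probe sets averaged. The list holds the genes Lpl and Car3, called lower, and the synthesis gene Scd1. It also holds Pck1, its sole call on a brightest probe set, which was higher with DBZ. For all of these the part of attached fat was not tested.

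Smooth muscle genes had a median of 0.10, with -0.16 against dexamethasone array 1 and 0.29 against array 2, so the direction turned with the array. Fibroblast genes did the same around a median of 0.02. Within that list the matrix proteins Ogn (log2 difference -1.21 ± 0.19, adjusted p = 0.0571) and Fbln2 (log2 difference -1.93 ± 0.36, adjusted p = 0.0739) were at least 2-fold below both arrays. The second Ogn probe set, of similar signal, differed by only -0.12. Pancreatic acinar genes had a median of 0.10 over 9 of 31 genes. Amino acid transporters had a median of 0.26 and also turned, at 0.55 against array 1 and -0.10 against array 2. Among them the glutamine transporter Slc1a5 read 187 with DBZ and 415 and 358 with dexamethasone (log2 difference -0.995 ± 0.27, adjusted p = 0.143) and was lowest with DBZ.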

How the data were processed

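The authors deposited 1 intensity per probe set, a MAS5 signal per the submitters' processing notes, which name no version. No detection calls were used. The deposited table holds 22690 probe sets in 8 sample columns, and 0 columns of other samples. Gene symbols came from the platform annotation: 20393 probe sets had 1 symbol, 691 several and 1606 none. The gene numbers of 20364 were found in RefSeq's table, and 0 symbols changed.

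All arrays were brought to one mean of 250 after trimming 2% of values from either tail, and the DBZ columns were averaged to 1 array. Values were log2(signal + 12.04), the constant being the pooled 20th percentile, so fold changes of dim genes are understated. The 64 control probe sets were left out, as were probe sets whose mean fell short of 38.21 (pooled 40th percentile). limma 3.58.1 in R 4.3.3 fitted means of DBZ (n = 1), dexamethasone (n = 2) and the combination (n = 2) with an intensity trend, 2 residual and 6.02 prior degrees of freedom, 2-sided p and Benjamini-Hochberg adjustment over all tested probe sets. Values after ± are SE. The SD between replicates was typically 0.312 (dexamethasone) and 0.267 (combination) on the log2 scale; the number of arrays limits the precision. The fit was tested on simulated data.

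Genes were represented by their brightest tested probe set. Named were the genes called on their brightest probe set, fixed genes of both pathways (such as Fkbp5, Hes1 and Mki67) and members of each list. The members were taken from the 5 with the smallest p, or 8 for the Notch, glucocorticoid, goblet, G2/M and G1/S lists. Other called genes were picked after their values were seen, and not every gene with a lower call is named. Lyz1, Nupr1, Prom1 and S100g were added after their values were seen. The 47 gene lists and the members were chosen with earlier results of these data known. Alternatives covered scaling, pseudocount, filter, variance model, probe set choice, the arrays fitted and each replicate left out.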

Additional observations from a re-analysis of the deposited data

How the results depend on the processing

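Among the genes named, Fcgbp alone reversed its direction, to -0.037 under quantile normalisation. Of the 122 genes named, 20 had a probe set that passed, 9 of them the brightest, and the passing set was followed through the settings. Over 2007 combinations of a gene and a setting, 140 lost a call, 153 gained one and 1713 stayed on the same side of the threshold. Of 53 named genes with another tested probe set, 12 had at least 1 that ran the other way. The count of calls (37, 10 higher and 27 lower) moved with most settings: quantile normalisation gave 12 (6 and 6), a pseudocount at the 40th percentile 7 (3 and 4), no filter 1 (0 and 1), a robust variance model 157 (40 and 117), and leaving out s, x and a probe sets 2 (1 and 1). A filter at the 60th percentile gave 17 lower calls. limma made 0 calls without the intensity trend (2164 at an unadjusted p under 0.05) and 0 with only the DBZ and dexamethasone arrays (2229). Leaving out single replicates gave 1 to 320 calls (0 to 77 higher, 1 to 243 lower). The number of calls is therefore loosely fixed, and so are the calls themselves. All 37 were made again in the robust model, but that model made more calls in all. Of the 37, only 11 were made again under quantile normalisation, 7 with the pseudocount at the 40th percentile and 1 with no filter. With the replicate number as a block there were 519 (141 and 378). The labels do not say that a number marks shared animals. The difference between replicates 1 and 2 correlated at 0.109 across probe sets between dexamethasone and the combination. With 2 pairs this cannot settle whether same-numbered arrays share more than a number.

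Of 32 list medians, 27 moved by more than the replicate spread under at least 1 alternative. With every replicate kept, processing turned the sign of 7: clock (to -0.13), cholesterol synthesis (-0.20), T cell (-0.038), pancreatic acinar (-0.44), interferon (0.079), fibroblast (-0.056) and Notch. It changed 15 others by over 1.5 times without turning them. These included B cell and plasma cell (to 0.37), MHC class II (0.30), adipose (-0.30), apoptosis (0.12), vitamin A (0.68), brush border (0.15), secretory specification (-0.21), fatty acid oxidation (0.046) and fatty acid synthesis (-0.26 to -0.72). The antimicrobial median lay between -0.76 and -0.50. For the main lists, the G2/M median was -0.76 with the higher pseudocount and -1.25 without s, x and a sets. The G1/S median was -0.46 with the higher pseudocount and -0.45 with the stricter filter. The Paneth median was -1.46 with quantile normalisation, -1.24 with the higher pseudocount, -1.17 with no filter, -1.38 without s, x and a sets, and -1.60 to -1.04 with single replicates left out. The goblet median was -0.095 without s, x and a sets. The Notch median was 0.20 with quantile normalisation, -0.19 with no filter, 0.22 with the stricter filter or without s, x and a sets, and -0.0071 over the mean of all probe sets of a gene, so it has no settled sign; with replicates left out it was 0.0060 to 0.13. The glucocorticoid median was 0.45 with quantile normalisation and 0.36 to 0.42 with replicates left out. The counts of 2-fold genes were chosen as a description after seeing the data: against dexamethasone array 1 alone 126 higher and 339 lower, against array 2 alone 172 and 224, and at 1.5-fold against both 270 and 537. Dim signals near the pseudocount limit what can be said of low genes.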

Other observations

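Several groups of genes not described above had medians near that of all genes. Genes of oxidative phosphorylation had a median log2 difference, DBZ minus dexamethasone, of 0.04 over 39 tested genes. Heat shock genes had -0.01 over 21, and genes of the endoplasmic reticulum stress response -0.02 over 30, with 15 higher and 15 lower. Urea and arginine genes had -0.02, ion and mineral transport genes -0.19, cyclin-dependent kinase inhibitors -0.14 and myeloid genes -0.08. Immediate early genes had 0.13, with 18 of 25 higher.

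Genes of fat absorption had a median of 0.30, and 18 of 22 were higher with DBZ. Bile acid genes had 0.45 over 8, endothelial genes 0.21 over 12 and enteric neuron and glia genes 0.27 over 7. Few genes could be tested of tuft cells (4 of 19, median 0.51), of liver (6 of 19, median 0.03) and of red cells (2 of 14, median -0.42). The 2 red cell genes tested had a summed signal of 282 with DBZ, 2240.3 in dexamethasone array 1 and 142 in array 2. The red cell markers Hba-a1 and Alas2 were too dim to test and did not share this. Hba-a1 read 6.87 with DBZ and 2.34 and 11.0 with dexamethasone, and Alas2 9.69 with DBZ and 9.68 and 1.81 with dexamethasone. Red cell content was not tested.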
